A study of Mus musculus with 5 samples.

Results

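The neurons described here are the Lypd1-high neurons of control mice, 314 of the 1070 control neurons (29.3%, exact 95% interval 26.6 to 32.2) and of 1954 neurons in the whole series. They were chosen from their own RNA counts. A control neuron was taken when Dupd1, a gene of type II neurons, was under 1 and Lypd1 was at least 3, both in UMIs per 10000 UMIs of the cell. A UMI (unique molecular identifier) tags 1 captured RNA molecule, and all levels below are in this unit, as means over cells unless stated otherwise. The working name for these cells is type Ic neurons, with Lypd1, Pou4f1, Grm8, Cd164l2, Ccdc109b and Sphkap as markers.

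Single cells came from mouse cochlea at postnatal days 30 to 33, from animals of both sexes, and were sorted for red fluorescence of the reporter. Control animals (2 samples) were bhlhb5-Cre/+; Ai14/+, and conditional knockout (CKO) animals (3 samples) were bhlhb5-Cre/+; Ai14/+; Runx1F/F, so every animal of both groups carried the Cre transgene and the reporter. Bhlhb5-Cre is active where the Bhlhb5 gene is, Ai14 then makes the red protein tdTomato, and in the CKO the floxed Runx1 alleles are deleted in the same cells from embryonic stages on. The study asks how the transcription factor Runx1 bears on the diversity of auditory neurons, and the control neurons give the starting state.

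Spiral ganglion neurons carry sound information from hair cells to the brainstem. Type I neurons contact inner hair cells and are parted into types Ia, Ib and Ic, which in the literature differ in their place on the hair cell, spontaneous firing and threshold. Type II neurons contact outer hair cells. Type Ic neurons are associated with low spontaneous rates and high thresholds, and type Ia neurons, rich in the calcium-binding protein calretinin (Calb2), with high spontaneous rates and low thresholds.

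The deposited table gives the genotype of each cell and does not give its sample, so the control cells are 1 pool, and cells are not replicates. Every difference is therefore a description of this pool with no test, and intervals cover counting error only. The sorted order of the cell barcodes begins anew at points along the matrix, and these points part the control cells into column stretches 2 (482 cells) and 5 (588 cells). No source used here names the library of a stretch. Values of both stretches are given for the markers and for some further genes. RNA of Schwann and satellite glia, at 5 or more UMIs per 10000 over 11 glial genes, was present in 64.0% of Lypd1-high neurons and in 63.9% of the other Dupd1-low control neurons. The groups were less alike within a stretch. In stretch 2 it was present in 48.6% of Lypd1-high and 53.3% of other Dupd1-low control neurons, and in stretch 5 in 86.0% and 69.7%.

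Lypd1 parted the Dupd1-low control neurons into cells with much of it and cells with little or none. Among the 637 cells left outside, 529 had no Lypd1 UMI and 616 were under 1. The 5 highest of them ran from 2.13 to 2.51, and the 5 lowest Lypd1-high neurons from 3.11 to 4.03. Few cells lay near the limit, with 21 from 1 to 3 and 12 from 3 to 6, while 273 of the 314 Lypd1-high neurons had 20 or more. No Lypd1-high neuron held a Dupd1 UMI, and only 1 control cell passed both limits.

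The Lypd1-high neurons held 11699950 UMIs, with a median of 37895.5 per cell and a range of 10379 to 64293. No cell had over 2 times that median. They were 185 of 482 cells in stretch 2 (38.4%, 34.0 to 42.9) and 129 of 588 in stretch 5 (21.9%, 18.7 to 25.5). The sort and the dissociation can set such shares, and their part was not tested.

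Lypd1 is a minus-strand gene of chromosome 1 spanning 125867622 to 125913101 in GRCm38, the assembly that mm10 denotes (GENCODE M21 annotation), and encodes a small membrane-anchored protein of the Ly6 family that modulates nicotinic acetylcholine receptors. Sphkap, which encodes an anchoring protein for protein kinase A, is also a minus-strand gene of chromosome 1, spanning 83254139 to 83408200. Both are shown by the 250 bases before a RefSeq transcription start (GRCm38.p6), because their levels varied together within the Lypd1-high neurons as described further on. The Lypd1 window is chr1:125912215-125912464, minus strand, the only one of its 3 RefSeq start windows with a Runx core motif, and lies in an intron of the longer Lypd1 transcripts. The Sphkap window is chr1:83408201-83408450, minus strand, just outside the annotated gene. Capitals mark the Runx core motif, TGTGGT or ACCACA on the printed strand, so that both strands were searched.
Lypd1: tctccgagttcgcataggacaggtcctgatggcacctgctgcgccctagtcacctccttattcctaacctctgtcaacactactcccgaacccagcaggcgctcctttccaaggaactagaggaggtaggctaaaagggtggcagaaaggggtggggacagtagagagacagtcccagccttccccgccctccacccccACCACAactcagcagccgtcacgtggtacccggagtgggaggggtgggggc
Sphkap: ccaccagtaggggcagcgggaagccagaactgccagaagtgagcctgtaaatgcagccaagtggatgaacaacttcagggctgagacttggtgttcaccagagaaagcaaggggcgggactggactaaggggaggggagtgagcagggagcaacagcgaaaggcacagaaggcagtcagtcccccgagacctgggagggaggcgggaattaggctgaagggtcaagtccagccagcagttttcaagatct
The motif begins at base 200 of the Lypd1 window, and the Sphkap window holds no match to these letters. Of 26 genes at least 2-fold higher in the Lypd1-high neurons than in other type I neurons, 23 had a RefSeq window, and 2 of these, Lypd1 and Rph3a, held the motif (8.70%). Of all 27025 genes with a window, 4303 held it (15.9%), and of the 3058 that were among the genes compared, 370 did (12.1%). Such a match is a description of letters only.

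The 6 markers were present together in the chosen cells. Lypd1, which the rule used, averaged 35.8 in the Lypd1-high neurons and 0.103 in the 637 other Dupd1-low control neurons, called other type I neurons below. Over single Lypd1-high cells it ran from 3.11 through a median of 38 to 64.4, and its means in stretches 2 and 5 were 33 and 39.7. Pou4f1, on chromosome 14 from 104461676 to 104467999, encodes the POU-domain transcription factor Brn3a of sensory neurons. Its level was 1.17 against 0.104, with 1.19 in stretch 2 and 1.14 in stretch 5. Both stretches thus held about the same amount.

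Grm8, on chromosome 6 from 27275119 to 28135178, encodes a presynaptic metabotropic glutamate receptor. Grm8 averaged 0.817 in Lypd1-high and 0.0189 in other type I neurons, and its means in the Lypd1-high neurons of stretches 2 and 5 were 0.726 and 0.948. Cd164l2, on chromosome 4 from 133212131 to 133224555, encodes a sialomucin-like membrane protein and averaged 1.17 against 0.101, with 1.36 in stretch 2 and 0.899 in stretch 5. Ccdc109b, named Mcub in the annotation and lying on chromosome 3 from 129914960 to 129970206, encodes a dominant-negative subunit of the mitochondrial calcium uniporter. It averaged 0.904 against 0.0106, or 97.0 times the pooled UMI rate (exact 95% interval 64.9 to 152), and its levels in stretches 2 and 5 were 1.07 and 0.669. Sphkap averaged 1.14 against 0.0684, and its quartiles over single Lypd1-high cells, 0.220 and 1.81, lay far apart. It was at 0.895 in stretch 2 and 1.48 in stretch 5, so that Sphkap and Grm8 were higher in stretch 5 and Cd164l2 and Ccdc109b in stretch 2.

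**Figure D1:**
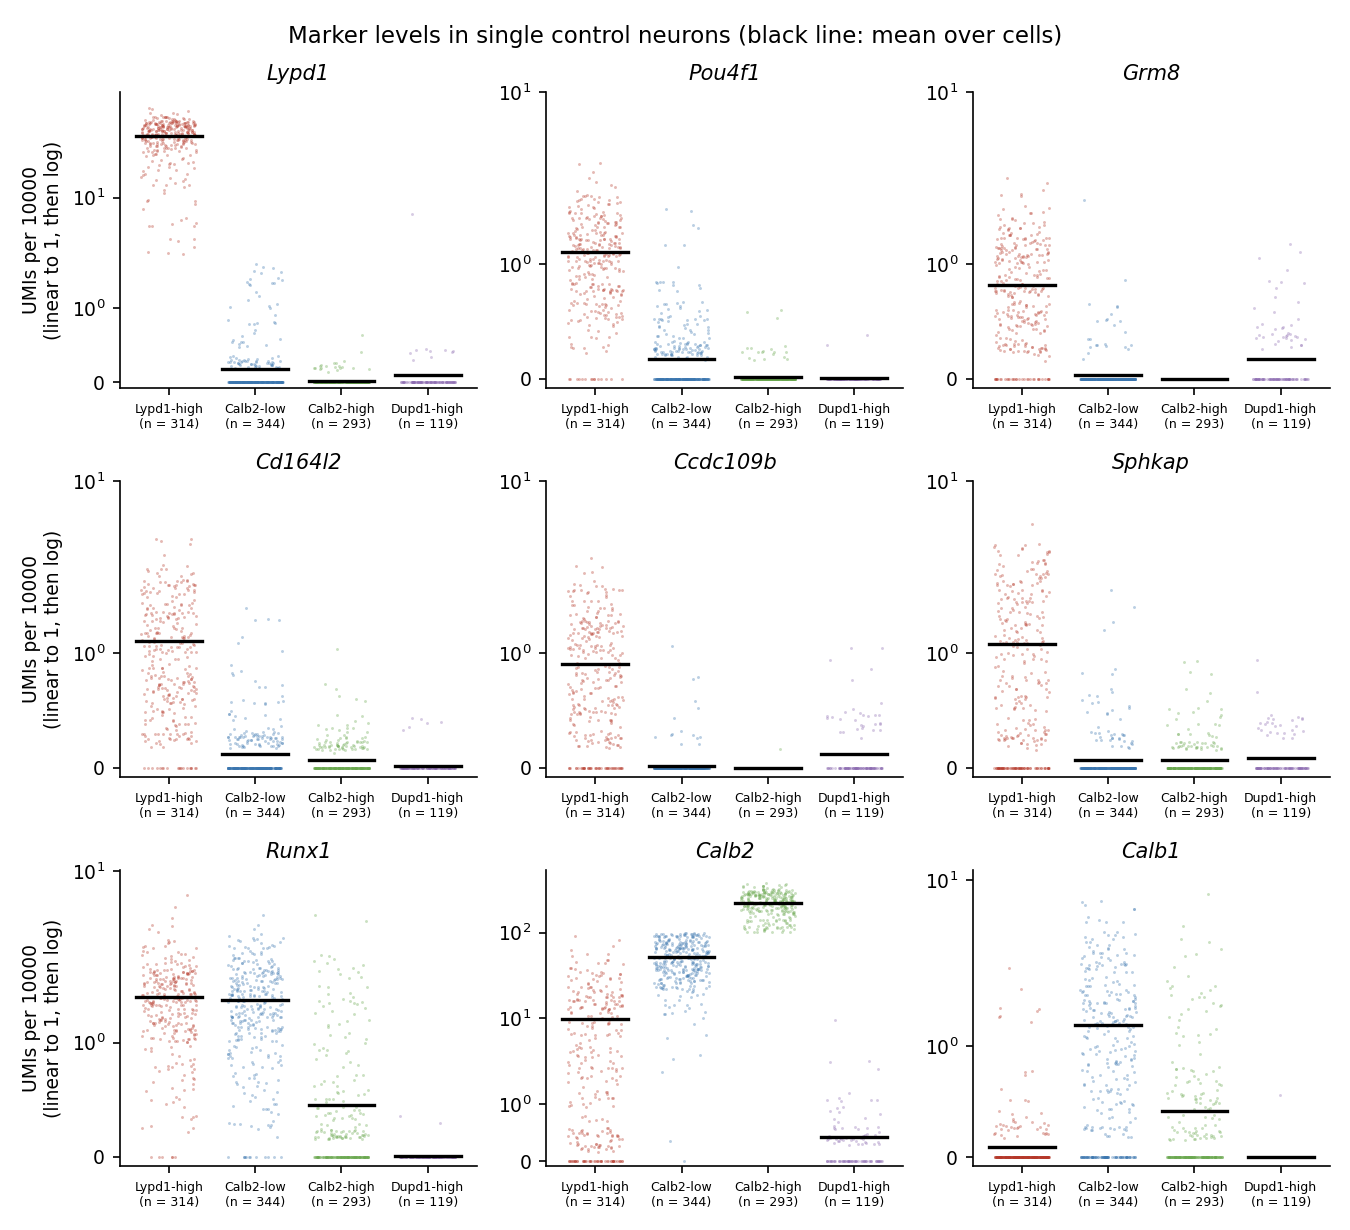
Level of 9 genes in every control neuron (points; y axis in UMIs per 10000, linear to 1 and logarithmic above, x axis the 4 groups with their cell numbers, horizontal spread within a group random; black lines are means over cells). The 6 markers in the upper rows were high in the 314 Lypd1-high neurons, Runx1 was at 1.84 there and 1.76 in the Calb2-low neurons, and Calb2 parted the other Dupd1-low neurons at a limit of 100.

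How often a low gene is seen depends on depth, so each cell was thinned to 10000 UMIs before cells with a UMI were counted. No cell was too shallow for that. At 10000 UMIs a gene at about 1 UMI per 10000 is missed in many cells. Pou4f1 was then seen in 70.1% of Lypd1-high neurons (220 of 314), Cd164l2 in 59.2%, Grm8 in 54.1%, Ccdc109b in 52.5% and Sphkap in 50.3%. In other type I neurons the shares were 9.26%, 9.73%, 1.73%, 0.785% and 6.91%. In the 119 control neurons with Dupd1 of at least 1, called Dupd1-high below, they were 0%, 2.52%, 16.0%, 11.8% and 9.24%. Grm8 and Ccdc109b were thus seen more often there than in other type I neurons. Each group was thinned in its own random draw, so shares that rest on few cells move between draws: Ccdc109b was seen in 5 of 637 other type I cells, and in 8 of 344 and 0 of 293 of the same cells drawn as Calb2-low and Calb2-high groups. Without thinning, Lypd1-high and other type I neurons had median depths of 37895.5 and 41405 UMIs. Pou4f1 was then seen in 95.2% and 24.5% of them, and Sphkap in 77.4% and 16.8%.

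Most Lypd1-high neurons carried several markers at once. Of the 5 markers besides Lypd1, 34.1% of the cells had 3 in thinned counts, 69 cells had 4 and 24 cells (7.64%) had all 5. Only 2.55% (8 cells, exact 95% interval 1.11 to 4.96) had none. Among other type I neurons with Calb2 under 100, 73.5% had none, and among those with Calb2 of 100 or more, 87.0% had none. Among Dupd1-high neurons 64.7% had none.

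Markers of the other classes were low. Calb2 averaged 9.88 against 131 in other type I neurons, and over single Lypd1-high cells it ran from 0 through a median of 3.57 to 90.8. B3gat1, which encodes a glucuronyltransferase that makes the HNK-1 epitope, was at 0.0820 against 1.2, and Pcdh20, a protocadherin gene, was at 0.0327 against 0.229. The retinoid receptor gene Rxrg was nearly absent, at 0.00706 against 0.263, with a UMI in 1 of 314 thinned cells. All 4 type Ia markers were thus lower than in other type I neurons. Pcdh20 and Rxrg were not particular to cells rich in Calb2. Thinned Dupd1-high cells had a UMI of them in 89.1% and 36.1%, and other type I cells with Calb2 of 100 or more in 28.7% and 33.4%.

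Of the type Ib markers, Calb1 (calbindin) was at 0.0894 against 0.918 and Ttn (titin) at 0.209 against 0.810. Ttn was at 0.301 in the Lypd1-high neurons of stretch 2 and 0.0766 in those of stretch 5, and at 1.61 and 0.374 in other type I neurons. Lrrc52, an auxiliary subunit gene of potassium channels, was too low to compare in both groups, at 0.0167 and 0.0548. Type II genes were close to 0. Th (tyrosine hydroxylase) had no UMI, Prph (peripherin) was at 0.000594 and the kinase gene Plk5 at 0.00484. Etv4 and Smad3 did not mark the Dupd1-high neurons here, at 0.00682 and 0, and were at 0 and 0.0175 in the Lypd1-high neurons. By a limit of 3 counts, 0 of 314 thinned cells allows a share of up to 0.955% of cells with a UMI, which is no limit on cells that express the gene. Ngfr, which encodes the p75 neurotrophin receptor, was the type II marker with the highest level, 0.402 against 0.852 in other type I and 8.95 in Dupd1-high neurons. The measured markers thus go with the working name. This is no independent support for the name. Lypd1 and Dupd1 chose the cells, and the markers were chosen with earlier results of these data known.

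RNA of other cell types was looked for by their marker lists. The summed level of the 15 Schwann and satellite glia genes in the matrix was 36.7 in Lypd1-high and 32.2 in other type I neurons, and none of the 9 at a mean of 0.2 was 1.5-fold apart. Within the Lypd1-high neurons that sum was 31.2 in stretch 2 and 44.5 in stretch 5. The fibroblast genes summed to 0.914 against 0.903, most of it Col1a2 (0.885 against 0.873), and the supporting cell genes to 0.413 against 0.366, most of it Sox2 (0.235 against 0.205). The part of such RNA in the results was not tested. The matrix held none of 7 endothelial and 5 erythrocyte genes of the lists, and the 2 macrophage genes in it summed to 0.000771.

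Against all 756 other control neurons, 23 of 3857 genes were at least 2-fold higher in the Lypd1-high neurons (0.596%) and 44 at least 2-fold lower (1.14%), at a mean of 0.5 or more in either group. The log2 ratios add 0.1 to both means, which makes the ratios of low genes smaller. Many of the genes with the lowest ratios had their highest level in Dupd1-high neurons. Myl1, which encodes a myosin light chain, was at 0.00262 in Lypd1-high and 48.2 in Dupd1-high neurons. Hspb1, Crabp1, Kcnc4 and Cilp were at 0.00187, 0, 0 and 0.000930 in the former and at 9.96, 4.49, 3.56 and 3.53 in the latter. Apoe, a gene of satellite glia, was at 0.144 in Lypd1-high and 12.3 in Dupd1-high neurons. Its log2 ratio to all other control neurons was -3.17, but -0.0085 in cells poor in glial RNA. Apoe is itself among the 11 glial genes by which those cells were chosen. Cells with much Apoe were thus left out by the choice, and the second value does not show where the Apoe RNA came from. Against the 119 Dupd1-high neurons alone, 568 of 4387 genes were at least 2-fold higher (12.9%) and 538 lower (12.3%).

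The comparison with the 637 other type I neurons leaves type II neurons out. Here 26 of 3805 genes were at least 2-fold higher in the Lypd1-high neurons (0.683%) and 18 lower (0.473%). All 44 had the same direction in both control stretches. At least 2-fold in both stretches were 15 of the 26 and 11 of the 18. Within stretch 2, 16 of 3803 genes were higher (0.421%) and 11 lower (0.289%), and within stretch 5, 36 of 3863 (0.932%) and 22 (0.57%). The Lypd1-high neurons thus differed from other type I neurons in few genes. The other type I neurons differed in make-up between the stretches. Calb2-high neurons, defined below, were 68 of 225 in stretch 2 and 225 of 412 in stretch 5. Stretch 2 also held 185 of the 314 Lypd1-high but 225 of the 637 other type I neurons, so pooled ratios mix class and stretch. The part of these imbalances in the counts of genes was not tested. Lypd1 is 1 of the 26, with a log2 ratio of 7.47 that the rule itself sets.

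Rph3a, which encodes rabphilin, a Rab3 effector on synaptic vesicles, was at 1.73 against 0.344 (log2 2.04). Its level in stretch 2 was 1.72 in Lypd1-high and 0.657 in other type I neurons, and in stretch 5 it was 1.74 and 0.174. Lypd1-high neurons of both stretches thus held the same amount of Rph3a while the other type I neurons did not. Pcsk2, the gene of a prohormone convertase that cleaves neuropeptide precursors, was at 1.78 against 0.454 (log2 1.76), with a UMI in 83.8% and 36.1% of thinned cells. The related convertase gene Pcsk5 was at 0.543 against 0.190. Serpini1, which encodes neuroserpin, was at 2.92 against 1.17, and Sncg (gamma-synuclein) at 2.51 against 0.963.

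Slc17a6 encodes the vesicular glutamate transporter VGLUT2, found in neurons beside the VGLUT1 of Slc17a7. Slc17a6 averaged 3.32 in Lypd1-high and 1.43 in other type I neurons (log2 1.16), with 3.39 and 3.21 in stretches 2 and 5. A UMI was seen in 94.3% of thinned Lypd1-high cells and 54.3% of other type I cells. For Slc17a7, named after its values were seen, nearly all cells had a UMI, and its level was 6.97 against 8.97.

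Rgs12 and Rgs10, which speed the shut-off of G protein signals, were at 0.650 against 0.139 and at 0.739 against 0.298. Prkar2b, the gene of a regulatory subunit of protein kinase A, was at 0.658 against 0.241. Plcd4, a phospholipase C gene, was at 0.545 against 0.184. Lgr5, a receptor gene of the R-spondin and Wnt pathway, was at 0.673 against 0.261, and Crim1, which encodes a membrane protein that binds bone morphogenetic proteins, at 0.582 against 0.180. Each of these was below 1 UMI per 10000 in the Lypd1-high neurons and lower still in the others.

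Rbfox3 encodes NeuN, a splicing factor used as a marker of mature neurons. It averaged 2.12 in Lypd1-high and 0.611 in other type I neurons (log2 1.64), 2.13 and 2.10 in the 2 stretches. Its related genes did not stand apart in the same way, with Rbfox2 at 3.25 against 2.80. Of the calcium-sensitive copine genes, Cpne9 was at 2.27 against 1.06 and Cpne6 at 1.08 against 0.473, while Cpne4 was lower, at 0.521 against 0.890. The cell adhesion gene Cdh4 was at 0.507 against 0.204.

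**Figure D2:**
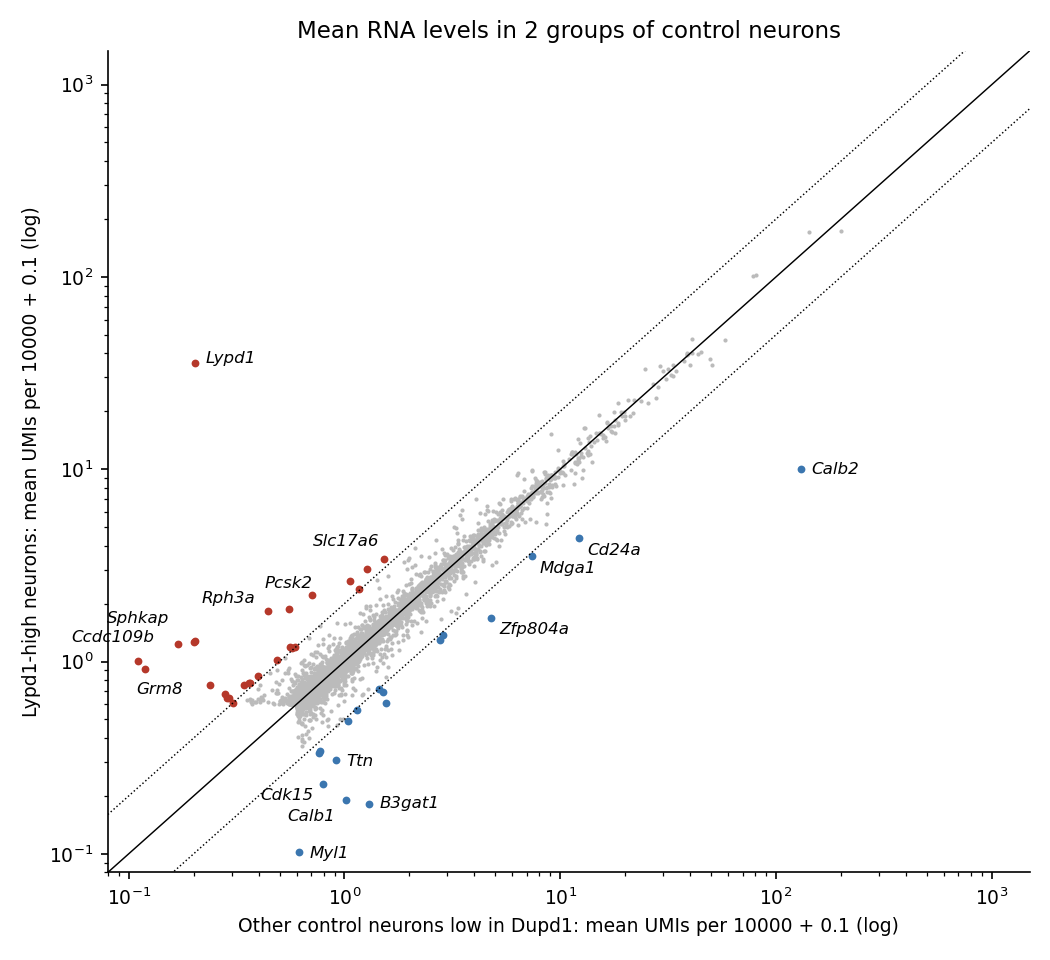
Mean level of the 3805 compared genes in Lypd1-high neurons (y axis) against other type I control neurons (x axis), in UMIs per 10000 plus 0.1 on logarithmic axes; the solid line marks equal levels, dotted lines 2-fold, red points the 26 genes at least 2-fold higher and blue points the 18 lower. Lypd1, which the rule used, stands far above the line and Calb2 far below it, and most genes lie close to it.

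The 18 lower genes included the markers Calb2, B3gat1, Calb1 and Ttn. Cd24a, which encodes a small glycoprotein of immature and mature neurons, was at 4.30 against 12.1, and over single Lypd1-high cells it ran from 0 through a median of 4.02 to 15.9. The zinc finger gene Zfp804a was at 1.59 against 4.66, with 1.6 and 1.59 in the Lypd1-high neurons of stretches 2 and 5. Mdga1, an adhesion gene whose product binds neuroligins, was at 3.42 against 7.27. These 3 genes were still detected in most thinned Lypd1-high cells, in 93.6%, 77.7% and 94.3%.

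Other lower genes followed at smaller means. Cdk15, a cyclin-dependent kinase gene, was at 0.132 against 0.695, Tmem229b at 0.508 against 1.46 and Parm1 at 0.241 against 0.670. Elovl5, a fatty acid elongase gene, was at 0.388 against 0.934. The transcription factor genes Maf and Casz1 were at 1.27 against 2.75 and at 0.235 against 0.659. Rasgrp2, which activates Rap1, was at 1.2 against 2.67, and the giant muscle protein gene Neb (nebulin) at 0.596 against 1.41. Neb varied strongly between single Lypd1-high cells, with a median of 0 and a highest value of 9.94. Myl1 was at 0.00262 against 0.518, but 4 of the other type I cells had Myl1 at 5 or more. Without those 4 cells 26 genes were higher and 17 lower, and Myl1 was the gene that left.

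The other type I neurons were parted at a Calb2 of 100 into 344 Calb2-low and 293 Calb2-high neurons, a limit on a continuous range with 76 cells within 20 of it. Against the Calb2-low neurons 14 of 3820 genes were at least 2-fold higher in the Lypd1-high neurons (0.366%) and 9 lower (0.236%). Against the Calb2-high neurons these were 70 of 3815 (1.83%) and 33 (0.865%). The Lypd1-high neurons were thus nearer the Calb2-low neurons in the number of genes apart.

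The Calb2-low neurons lay between the other groups for most of these genes. Of the 70 genes higher than in Calb2-high neurons, 67 had an intermediate mean in the Calb2-low neurons, and of the 33 lower ones, 31 did. Genes picked for the distance between the end groups favour a middle mean in the group between, so these counts are a description only. Of the 26 genes higher than in other type I neurons, 25 were ordered upward from Calb2-high through Calb2-low to Lypd1-high in the pool, and 24 did so in both stretches. The gene without that order was Sncg, at 0.984, 0.944 and 2.51. Of the 18 lower genes, 14 were ordered in the reverse direction in the pool and 11 in both stretches. Myl1, Ttn, Calb1 and Casz1 were highest in the Calb2-low neurons. The 26 and 18 genes were picked for their distance from the combined Calb2 groups, which favours the step to the Lypd1-high neurons. Calb2, among the 18, also set the split. The share of all compared genes with such an order is not given here, so these counts are likewise a description only.

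Genes differed in where their step lay. Runx1, on chromosome 16 from 92601466 to 92826149, averaged 0.451 in Calb2-high, 1.76 in Calb2-low and 1.84 in Lypd1-high neurons, so that nearly the whole difference lay between the first groups. Btbd9, an adaptor gene for a ubiquitin ligase, had the same form at 3.18, 13.8 and 15.1, and so did the axon guidance gene Ntng1 at 0.380, 2.45 and 2.69. Slc17a6, at 0.496, 2.22 and 3.32, also had its larger step there and was higher again in the Lypd1-high neurons. Rbfox3 was at 0.199, 0.961 and 2.12.

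Pcsk2 had its larger step at the Lypd1-high neurons, at 0.296, 0.589 and 1.78. Sphkap was at 0.0666 and 0.0699 in the other groups against 1.14 in the Lypd1-high neurons, in which it thus had its only step. Among the lower genes, Mdga1 was at 11.4, 3.76 and 3.42, while Zfp804a was at 6.27, 3.29 and 1.59. Ttn had its peak in the middle group, at 0.135, 1.39 and 0.209.

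**Figure D3:**
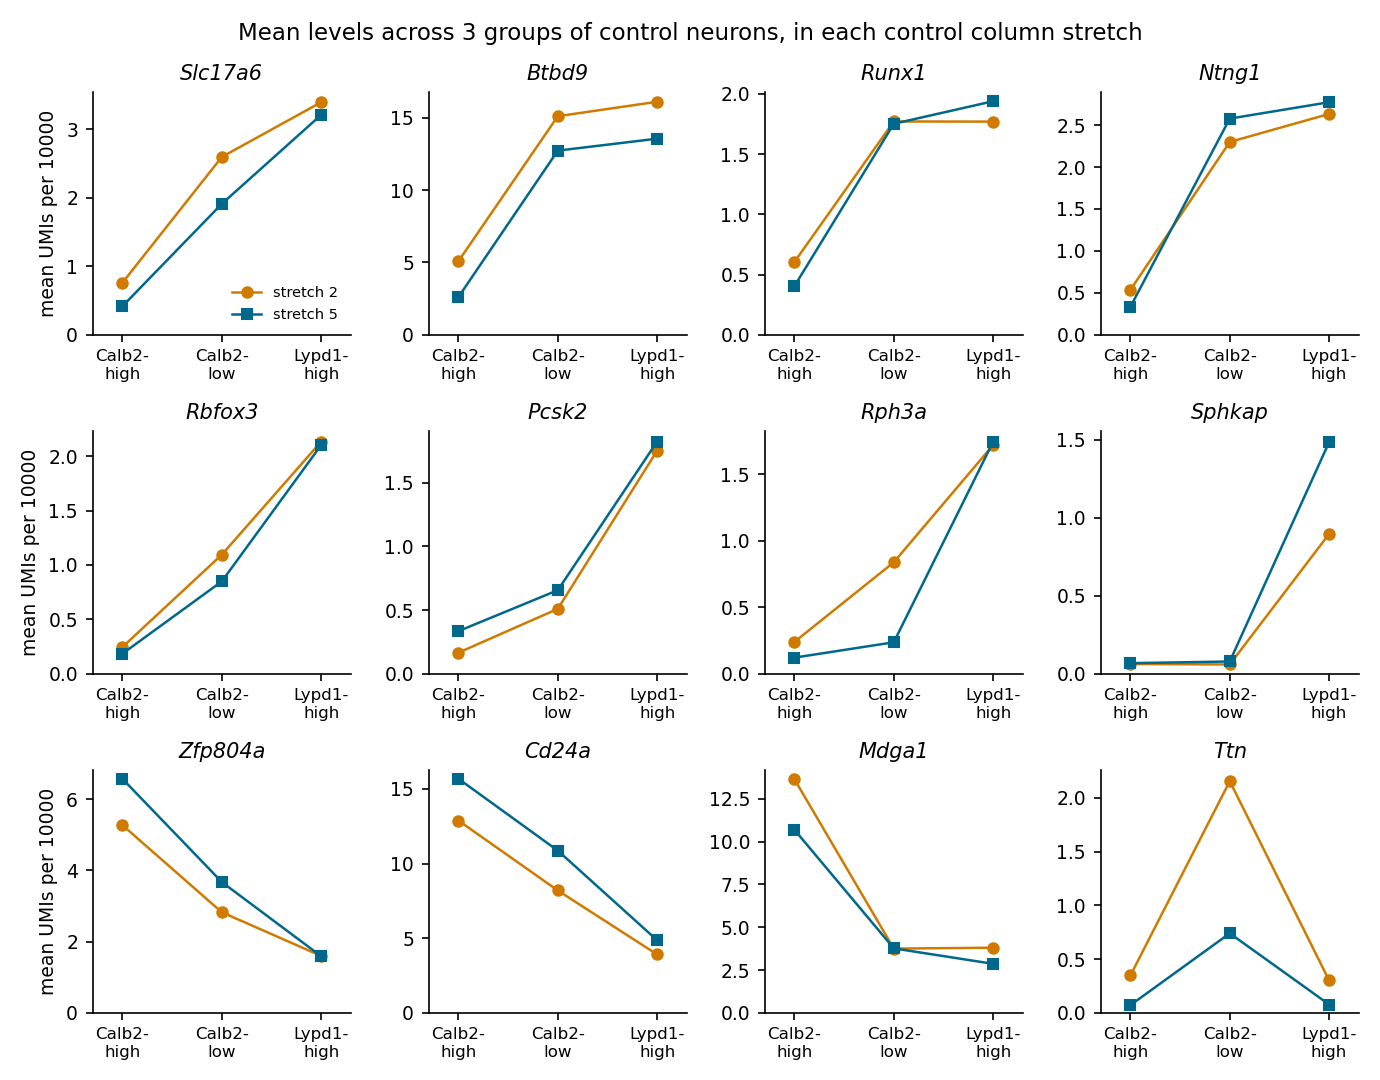
Mean level of 12 genes (y axes from 0, UMIs per 10000) in Calb2-high, Calb2-low and Lypd1-high control neurons (x axis), separately for column stretches 2 (circles) and 5 (squares). Runx1, Btbd9 and Ntng1 differ mainly between the Calb2 groups, Pcsk2 and Sphkap mainly at the Lypd1-high neurons, and Ttn is highest in the middle group, in both stretches.

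Lists of genes by function were compared with other type I neurons at a lower limit, 1.5-fold at a mean of 0.2, where 145 of 6688 genes were higher (2.17%), 104 lower (1.56%) and the median log2 ratio was 0.02. Over all lists together, 38 of 478 genes were higher and 25 lower, the markers included. The lists were drawn up with earlier results of these data known.

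Among 22 transcription factors of sensory neurons, 4 were higher and 5 lower (median log2 -0.24). Pou4f1 was far the most different, and Runx1 was at 1.84 against 1.16. The chromatin organiser gene Satb1, named after its value was seen, was at 0.678 against 0.381. Rxrg, Casz1 and Maf were among the lower ones, with Zfhx3 (0.571 against 1.10) and Tshz2 (1.04 against 1.69), again named after their values were seen.

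Most neurotransmitter receptor genes lay within 1.5-fold. Of 6 ionotropic glutamate receptor genes, only the kainate receptor gene Grik4 was 1.5-fold higher, at 0.443 against 0.231. Gria2, a core AMPA receptor subunit, was at 1.29 against 1.21, and Grin1, the shared NMDA receptor subunit, at 2.94 against 2.38. Grm8 was higher and Grm7, of the same presynaptic receptor group, was not, at 0.407 against 0.466. Of the nicotinic and muscarinic receptor genes only Chrnb2 reached a mean of 0.2, at 0.369 against 0.322. Of the Ly6 family besides Lypd1, Lynx1 was at 3.02 against 2.71 and Lypd6b at 0.482 against 0.400.

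Of 6 genes of A-type potassium channels, which open briefly below the firing threshold, 2 were higher. Both encode channel-interacting proteins of Kv4 channels, Kcnip2 at 0.808 against 0.445 and Kcnip1 at 1.21 against 0.698. Their relative Kcnip4 was not, at 0.521 against 0.697. The list's median log2 ratio was 0.44, beside 0.02 for all genes. Kcnab2, an auxiliary subunit gene of Kv1 channels, was at 5.43 against 3.41 and the only one of 9 Kv1, Kv2 and Kv3 genes to pass. The leak channel genes parted, with Kcnk3 (TASK-1) at 0.2 against 0.0551 and Kcnk1 (TWIK-1) at 5.07 against 8.46. The sodium leak channel gene Nalcn was at 0.308 against 0.121, the only one of 7 sodium channel genes to pass, with Scn2a1 at 0.337 against 0.253.

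Of 15 calcium buffer and sensor genes, Calb2, Calb1 and Hpcal1 (0.138 against 0.312) were lower and Ncald, which encodes neurocalcin delta, was higher at 0.424 against 0.109. Calb2 and Calb1 are also class markers. Pvalb (parvalbumin) was at 39.7 against 39.2, so that this buffer was level. Of 9 calcium channel genes only Ryr2, the gene of a calcium release channel, passed, at 1.22 against 0.586. Of 8 genes of the mitochondrial calcium uniporter complex, only the inhibitory subunit gene Ccdc109b was apart, with Mcu, the pore subunit, at 0.206 against 0.175.

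In the list of protein kinase A anchoring and cyclic AMP, Sphkap and Prkar2b were the only ones of 18 higher and none was lower. Of 21 G protein genes, Rgs12 and Rgs10 were higher, while Gnao1 (0.136 against 0.432), Rgs3 (0.127 against 0.268), Gnal (0.450 against 0.763) and Rgs6 (0.225 against 0.418) were lower. Gnal and Rgs6 were named after their values were seen.

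At the synapse, 3 of 31 genes of vesicular transport and release were higher, Rph3a, Slc17a6 and Cplx2. Cplx2 encodes complexin 2, which clamps and promotes vesicle fusion, and averaged 0.477 against 0.0379. It was at 0.247 in the Lypd1-high neurons of stretch 2 and 0.807 in those of stretch 5, the widest gap between stretches of these 3. Syngr1 (synaptogyrin) was lower at 0.621 against 1.19, as was Syt7, a calcium sensor of asynchronous release, at 3.18 against 4.95 (named after its value was seen). Of 10 postsynaptic scaffold genes Camk2g (4.18 against 2.56) and Homer2 (1.02 against 0.634) were higher.

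Adhesion and guidance genes went both ways. Of 9 cadherin genes, Cdh4 and Pcdh9 (0.230 against 0.112, named after its value was seen) were higher, and Cdh9 (0.0377 against 0.302), Cdh22 (0.0748 against 0.348) and Pcdh20 were lower. Of 19 guidance genes, the netrin receptor gene Dcc (0.201 against 0.0353), the semaphorin co-receptor gene Nrp1 (0.411 against 0.185) and Ntng1 were higher, and Unc5d, of another netrin receptor, was lower at 0.627 against 0.991. Of 19 synaptic adhesion genes, only the teneurin gene Tenm2 passed, at 0.227 against 0.0832, and the list's median log2 ratio was 0.27.

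Lists of general cell function were level. None of 77 cytosolic ribosomal protein genes was 1.5-fold apart (median log2 0.04), and of 75 nuclear genes of oxidative phosphorylation only Cox8b was, at 1.32 against 2.15 (median log2 -0.08). Of 28 neurofilament and cytoskeleton genes only Dpysl3 was apart, at 0.797 against 1.30. Atf3, an injury-induced transcription factor gene, was at 0.259 against 0.116 and the only one of 6 immediate early and heat shock genes to pass.

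**Figure D4:**
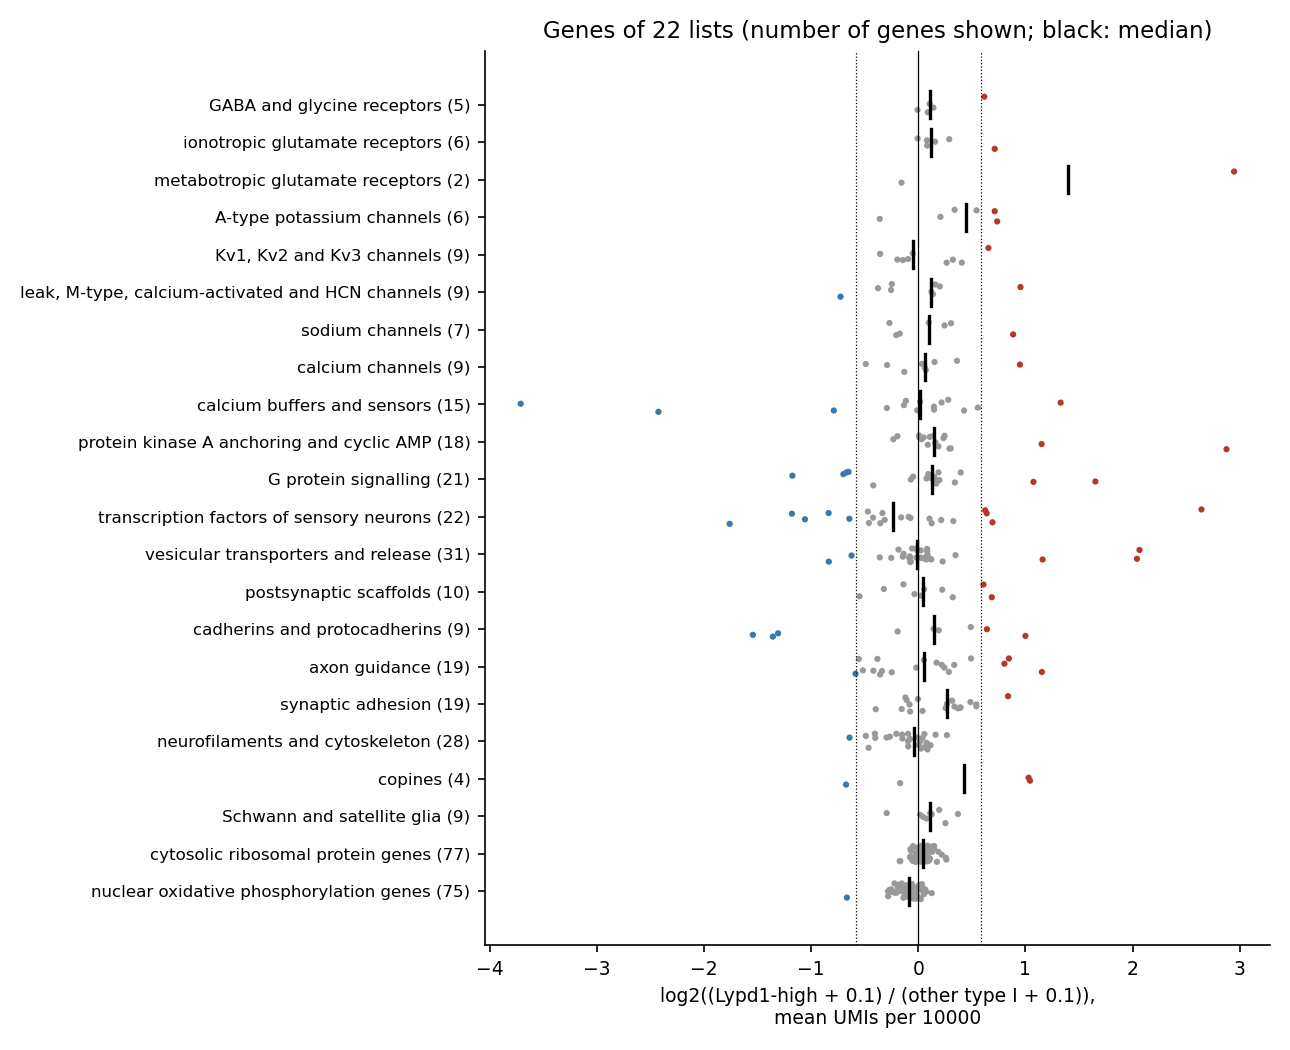
Log2 ratio of the mean level in Lypd1-high to other type I control neurons (x axis, 0.1 added to both means) for the genes of 22 lists at a mean of 0.2 or more (rows, number of genes in brackets); black bars are medians, dotted lines 1.5-fold, red and blue points genes beyond them. Ribosomal and oxidative phosphorylation genes lie near 0, while the lists of channels, calcium buffers and release each hold single genes far out.

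The Lypd1-high neurons were not uniform. In thinned counts, 82 of 3677 genes had a variance of at least 2 times their mean, beside a median ratio of 1.07. After Rn45s, a ribosomal RNA gene at 262, high ratios were those of the nuclear RNAs Malat1 (83.5) and Meg3 (26.1), then Calb2 (20.1) and Snhg11 (9.39). Fth1, Mir6236, Igfbp6, Pmp22, Mt3 and Mt1 had ratios from 6.20 to 8.17. Rn45s and Mir6236 were named after their values were seen. Malat1 ran from 20.4 through 146 to 929 over single cells. Calb2 was the only marker of a neuron class among these.

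Calb2 marked a gradient in the group. In thinned counts over the 314 cells, the Spearman rank correlation of Calb2 with Lypd1 was -0.50 and that with Sphkap -0.48, the lowest of the 3584 genes at a mean of 0.5, beside a median absolute value of 0.045. In stretches 2 and 5 they were -0.50 and -0.47 for Lypd1 and -0.49 and -0.45 for Sphkap. In the 113 cells poor in glial RNA they were -0.47 and -0.41. Lypd1 and Sphkap were correlated at 0.39 (0.40 and 0.27 in stretches 2 and 5), the highest value of any gene with Lypd1. These are descriptions over cells of 1 pool, which share libraries, and counts of 1 cell add to 1 total. Lypd1 also chose the cells, so its correlations hold over a range that the rule cut. The correlation with depth was -0.03 for Calb2, 0.12 for Sphkap and 0.27 for Lypd1. That with glial RNA was -0.02 for Calb2 and 0.03 for Sphkap.

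In the 112 cells with Calb2 under 1, Sphkap averaged 1.96. In the 126 cells with Calb2 from 1 to 15 it was 0.906, and in the 76 cells above it was 0.309. Sphkap was lower with each bin in both stretches, from 1.71 through 0.706 to 0.219 in stretch 2 and from 2.24 through 1.18 to 0.505 in stretch 5. Lypd1 was at 42.7, 37.2 and 23.3. The remaining markers differed less, with Grm8 at 0.959, 0.803 and 0.631, Pou4f1 at 1.29, 1.17 and 1.0, and Cd164l2 at 1.14, 1.19 and 1.19. Runx1 was level at 1.78, 1.84 and 1.93. Median depths of the bins were 38164, 37888.5 and 37338.5 UMIs, and glial RNA was present in 74.1%, 58.7% and 57.9% of their cells. The part of glial RNA in these differences was not tested.

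Few further genes followed Calb2 this far. Between the outer bins, 2 of 3849 genes were at least 2-fold higher in the cells with more Calb2 (0.052%) and 2 lower (0.052%). The 4 were Calb2 itself and Kcnip4, at 0.263 in the lowest bin and 0.752 in the highest, and on the other side Sphkap and Cplx2, at 0.658 and 0.276. Cplx2 rested on stretch 5, where it was at 1.18 and 0.344, while in stretch 2 it was at 0.209 and 0.244. Kcnip4 was higher with Calb2 in both stretches. Cd24a went with Calb2 (rank correlation 0.34), at 3.02, 4.49 and 5.85, and so did Rtn1 (0.33), named after its value was seen. Sncg went against it, at 3.21, 2.32 and 1.78, as did Cpne6, at 1.39, 1.02 and 0.723. Cd24a is low and Sncg and Cpne6 are high in the Lypd1-high neurons as a whole, so that the cells with more Calb2 lay nearer other type I neurons in these genes. Slc17a6 went the other way, at 2.98, 3.49 and 3.54 with rising Calb2, against 1.43 in other type I neurons. The rank correlation of Sncg with Calb2 was -0.222, but -0.088 in stretch 5 and -0.116 in cells poor in glial RNA. The part of cells on the border between classes or of doublets was not tested.

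**Figure D5:**
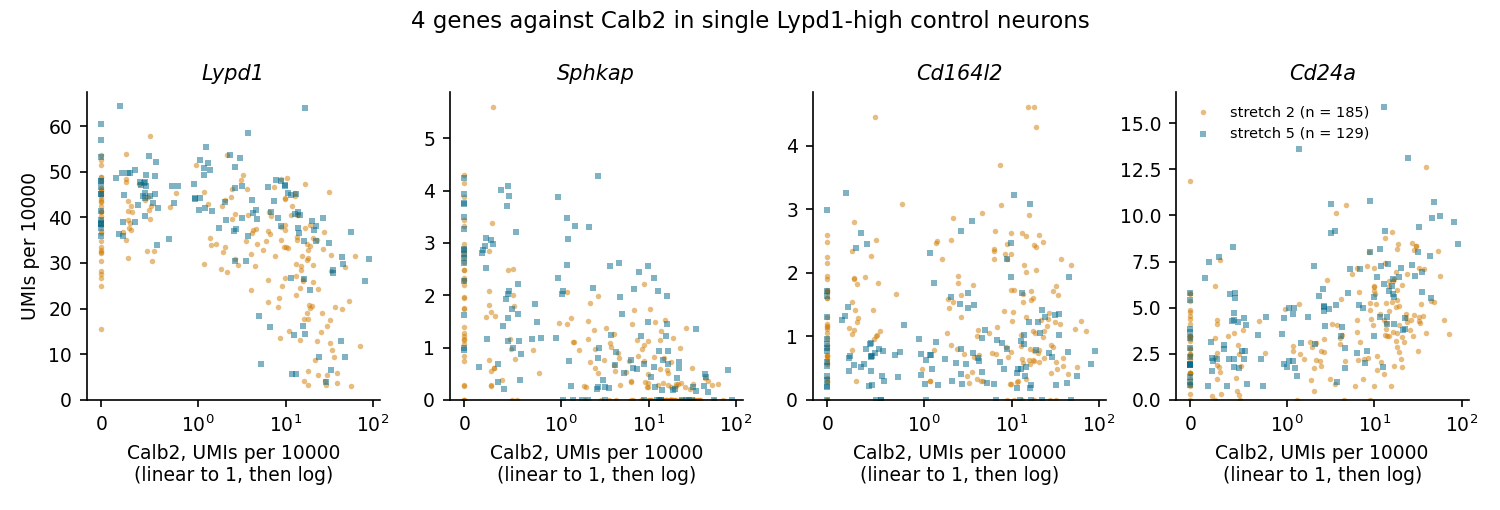
Lypd1, Sphkap, Cd164l2 and Cd24a (y axes, UMIs per 10000) against Calb2 (x axis, UMIs per 10000, linear to 1 and logarithmic above) in the 314 single Lypd1-high control neurons, circles from stretch 2 and squares from stretch 5. Lypd1 and Sphkap are lower toward high Calb2, Cd24a is higher and Cd164l2 stays level.

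The 41 Lypd1-high neurons under a Lypd1 of 20 were compared with the 273 above it as a description, since Lypd1 chose all of them. Of 3873 genes, 2 were at least 2-fold higher in the former (0.0516%) and 3 lower (0.0775%). Calb2 was at 24.9 against 7.62 and Ttn at 0.764 against 0.126. Sphkap was at 0.239 against 1.27 and Cplx2 at 0.161 against 0.525, with Lypd1 itself as the last gene. Ccdc109b was at 0.531 against 0.960, and Pou4f1 at 0.777 against 1.23. Runx1 was at 2.14 against 1.79. Glial RNA was present in 53.7% and 65.6% of these cells, and its part was not tested.

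Between the stretches, 14 of 3893 genes were at least 2-fold higher in the Lypd1-high neurons of stretch 5 than in those of stretch 2 (0.360%) and 6 lower (0.154%). Scg5, which encodes a chaperone of Pcsk2, was at 11.8 against 3.80, and in other type I neurons it was at 10.3 and 3.98. Rpl37 was at 1.71 against 0.594 (other type I 1.54 and 0.556) and Oaz1 at 1.52 against 0.436 (1.27 and 0.467). Rpl29 was lower at 2.04 against 4.47 (1.92 and 4.66). These 4 genes thus differed alike in other type I neurons. Cplx2, already given, and Col27a1 (0.769 against 0.285) were level between the stretches in other type I neurons, at 0.0383 and 0.0372 and at 0.571 and 0.588. Sncg was at 3.61 against 1.74 (other type I 1.06 and 0.781).

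The same rule found 132 of 884 CKO neurons (14.9%, 12.6 to 17.5), which made up 13.5%, 7.53% and 35.7% of the CKO stretches 1, 3 and 4. Of 3845 genes, 14 were at least 2-fold higher in these cells than in the control Lypd1-high neurons (0.364%) and 1, Rpl29, lower (0.026%). Taken alone, stretches 1, 3 and 4 had 26, 21 and 11 higher genes (0.672%, 0.537% and 0.283%) and 27, 5 and 6 lower ones (0.698%, 0.128% and 0.154%). Runx1 RNA was not lower, at 2.51 against 1.84, with 3.17, 2.50 and 1.95 in stretches 1, 3 and 4. Counts from a 3' assay do not check this deletion, since no label says which part of the gene was floxed.

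Lypd1, which chose these CKO cells, was at 28.5 against 35.8. Of the other type Ic markers, Sphkap was at 1.92 against 1.14, Grm8 at 0.892 against 0.817 and Pou4f1 at 1.03 against 1.17, while Ccdc109b was at 0.561 against 0.904 and Cd164l2 at 0.590 against 1.17. Genes of other type I classes went both ways. The type Ib marker Ttn had a UMI in 3.79% of thinned CKO cells, against 8.92% of the control cells. The type Ia markers Rxrg and Pcdh20 had one in 4.55% and 8.33%, against 0.318% and 3.82%. B3gat1, Calb1 and Calb2 were higher, at 1.04 against 0.0820, 1.46 against 0.0894 and 26.6 against 9.88. The higher means of these last 3 genes rested on stretches 1 and 3. Calb1 was at 2.93 and 1.5 there and at 0.174 in stretch 4, B3gat1 at 1.87 and 1.68 and at 0.0180, and Calb2 at 45.3 and 38.8 and at 4.46. Btbd9 was at 2.49 and 3.95 in stretches 1 and 3 against 14.7 in stretch 4 and 15.1 in the control cells. In these 4 genes stretch 4 lay nearer the control cells than stretches 1 and 3 did. It did not in Sphkap, at 1.21, 1.30 and 2.83 in stretches 1, 3 and 4, nor in Cd164l2, at 0.626, 0.584 and 0.563. Lypd1 itself was at 15.8, 23.1 and 42.2.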

How the data were processed

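Single-cell RNA libraries (10x Genomics 3' v3) of sorted cochlear neurons were processed with Cell Ranger and Seurat on mm10, per the submitters' processing notes, without versions. The deposited matrix of 14715 genes and 1954 cells holds values on a natural log scale: each is the natural log of 1 plus 100000 times a UMI count over the cell's total. No label states this scale, and it was settled from the values, which returned whole UMIs. A deposited group column gives the genotype of each cell but no sample.

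From these UMIs, levels per 10000 were averaged over cells with Python 3.11.15, numpy 2.4.6, pandas 2.3.3 and scipy 1.17.1, and plotted with matplotlib 3.10.9. Ratios add 0.1 to each mean, and shares of cells use counts thinned to 10000 UMIs. Exact intervals are Clopper-Pearson at 95%. No doublet caller was run, and whether doublets had been removed is not given in the sources used here.

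The members, markers and gene lists were chosen with earlier results of these data known. Named genes are the class markers, the 15 genes each way with the largest ratio in each control comparison, up to 4 of each list, the 10 most variable genes and 8 each way between stretches. Predicted and sex-linked genes were passed over. The calculations were checked on simulated data.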

Additional observations from a re-analysis of the deposited data

How the results depend on the processing

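The number of Lypd1-high neurons was 320 with a Lypd1 limit of 2, 307 with a limit of 5 and 314 with a Dupd1 limit of 0.5. The counts of genes at least 2-fold apart depended on the settings, and the cause was not tested where cells were left out. Against other control neurons, 23 genes were higher, with 36 at an added constant of 0.01, 8 at 0.5, 43 at a mean minimum of 0.2, 12 at 1 and 39 in control stretch 5 alone. The 44 lower genes were 24 at a constant of 0.5, 102 at a minimum of 0.2, 24 at 1, 98 in cells poor in glial RNA and 89 in stretch 2 alone. Against other type I neurons, the 26 higher genes were 11 at a constant of 0.5, 44 at a minimum of 0.2, 14 at 1 and 16 in stretch 2 alone. The 18 lower genes were 6, 38, 11 and 11 under these settings. Of the 82 log2 ratios of named genes, 37 dropped under 2-fold at a constant of 0.5, 19 in stretch 2 alone and 9 in cells poor in glial RNA. No paired analysis was possible because the matrix columns carry no sample, and for the same reason no replicate could be left out. In counts thinned to 10000 UMIs, a gene under about 1 UMI per 10000 was missed in many single cells. Without thinning, Pou4f1 and Sphkap were seen in more cells.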
